A study of Mus musculus with 4 samples.

Results

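The genes described here encode the guidance signals of migrating cells and growing axons, with their receptors: semaphorins, neuropilins and plexins, Slits and Robos, ephrins and Eph receptors, netrins and Unc5 receptors. They were chosen by symbol from the annotation of a mouse array of spotted oligonucleotides. The rule took 60 probes of 56 genes, and 45 of these genes, on 48 probes, had a value on all 4 arrays, out of 9757 genes with such values. Of the other 11 genes, Efna5, Ephb3 and Sema4f had no value on any array and 8 lacked a value on at least 1 array. The rule also took Unc50 and Unc5cl, whose names resemble those of the netrin receptors but which encode other proteins. They are counted as members and as neither ligands nor receptors.

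Total RNA was taken at 12.0 days post coitum from embryonic mouse gonads, cut away from the neighbouring mesonephroi. On 2 arrays XY wild type (Wnt4+/+) gonads were compared with XX wild type (Wnt4+/+) gonads, and on the other 2 arrays XX Wnt4-/- gonads, called Wnt4 null below, were compared with XX wild type gonads. In each pair replicate 1 carried the XY or Wnt4 null RNA in the dye Cy5 and replicate 2 carried it in Cy3, with XX wild type RNA in the other dye. Each genotype was represented by more than 100 embryos, combined into several pools ahead of extraction, and it is not stated if both arrays of a pair shared an extract. The p-values below therefore measure the spread between arrays, which may be technical. Genotype was the sole difference named for the Wnt4 null embryos, and the labels describe the null allele no further.

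Values are log2 ratios over XX wild type, so that 1 stands for a doubling, each array was centred on its median, and errors are SD with n = 2 arrays. The direction of the ratios is likely but not settled. No label names the numerator, and XY replicate 1 as deposited correlated at r = -0.62 with Wnt4 null replicate 1, the array of the same dye orientation. XY replicate 1 was turned because the Y-linked Eif2s3y, Xist, the Sertoli cell gene Cst9 and the ovarian gene Fst had opposite signs on the XY pair as deposited, and the other arrays were left as they were. After turning, Eif2s3y had 1.43 and 0.91 in XY and Fst had -2.49 and -3.40. On the Wnt4 null arrays, where both RNAs were labelled XX, Eif2s3y had 1.11 and -0.55, so its ratio also moved where no Y chromosome was expected. Counts with arrays turned the other way are given beside each comparison. Spots were paired with gene names by swapping the row and column order inside each printed block.

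Wnt4, the gene named in the null genotype, had -0.08 and -0.18 on the arrays labelled Wnt4 null and -1.08 and -1.73 on the XY arrays. The ratio thus showed no loss of Wnt4 signal on the Wnt4 null arrays. No source used here says where its probe lies relative to the deletion, so it does not check the genotype, and Wnt4 null below means the arrays so labelled. On these arrays Fst had -3.02 and -2.21.

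Semaphorins are secreted or membrane-bound signals. The secreted class 3 binds neuropilins, which signal through plexins, and usually repels or slows the cells that receive it, endothelial cells among them. Slits are large secreted proteins that bind Robo receptors, ephrins are membrane-bound ligands read by the Eph receptor tyrosine kinases on touching cells, and netrins attract or repel through Dcc and Unc5 receptors. The fetal testis gains its main artery when endothelial cells move in from the mesonephros, a movement that Wnt4 restrains in the ovary, and the title of the series places its question there.

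Robo1 and Sema3a were the members that differed from XX wild type by 1.5-fold or more, with 1 sign, on both arrays of each comparison. The DNA just before their transcription starts is shown because their ratios had opposite signs, and it was searched for motifs of the Wnt effectors TCF and LEF and of 2 kinds of gonadal factor, GATA and NR5A1. Each line gives the 250 bases before the RefSeq start in build GRCm38.p6, with capitals for the match to a GATA motif (AGATAG read on the opposite strand), the only kind of motif found in either. Robo1 lies on the plus strand at chr16:72662899-72663148 and Sema3a on the plus strand at chr5:13396534-13396783.
Robo1: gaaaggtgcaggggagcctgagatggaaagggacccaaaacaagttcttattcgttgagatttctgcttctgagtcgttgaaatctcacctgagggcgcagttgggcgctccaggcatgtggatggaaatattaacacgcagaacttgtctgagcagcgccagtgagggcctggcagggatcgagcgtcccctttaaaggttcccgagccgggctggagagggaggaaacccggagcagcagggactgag
Sema3a: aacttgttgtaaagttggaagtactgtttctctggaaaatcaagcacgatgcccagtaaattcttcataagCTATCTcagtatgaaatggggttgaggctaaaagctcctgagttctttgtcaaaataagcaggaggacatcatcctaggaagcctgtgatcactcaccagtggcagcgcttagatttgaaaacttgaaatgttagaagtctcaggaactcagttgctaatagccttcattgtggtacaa
Neither window held a TCF or LEF match (CTTTGAA or CTTTGAT or CTTTGTA or CTTTGTT on either strand), which 14.8% of all 32851 windows of this length did. A GATA match (AGATAA or TGATAA or AGATAG or TGATAG on either strand) was present 179 bases before the Sema3a start and absent from the Robo1 window, beside 26.5% of all windows. Neither held CAAGGTCA or CAAGGCCA, forms of the NR5A1 site (3.28% of all windows). Among the 49 windows of the 39 members with a window, 4 held a TCF or LEF match (8.16%), 7 a GATA match (14.3%) and 0 an NR5A1 match. The Robo1 window was 56.0% G and C with 11 CpG pairs and the Sema3a window 40.8% with 2, against medians of 52.4% and 6 over all windows. The windows carry no measurement of binding in these gonads.

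In XY gonads the Slit receptor gene Robo1 had the highest ratio over XX gonads among the members, and the repulsive ligand gene Sema3a and the Eph receptor gene Epha7 had the lowest. These 3 passed limma with a dye term in the fit and not without it. Robo1 had log2 ratios of 1.48 and 1.85 on XY replicates 1 and 2. Both arrays lay well above 0, the mean of 1.66 ± 0.26 is a 3.17-fold difference, and Robo1 ranked number 26 from the top of 9757 genes. Sema3a had -1.27 and -0.79, a mean of -1.03 ± 0.34 or 2.05-fold lower, and ranked number 64 from the bottom. Epha7, which reads A-type ephrins, had -1.09 and -0.66, a mean of -0.88 ± 0.31 or 1.84-fold lower.

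These 3 were the members past 1.5-fold with 1 sign on both XY arrays, 1 higher and 2 lower of 45, where the same held for 2.9% of all genes, 1.5% higher and 1.4% lower. In limma without a dye term 0 members were called, as were 0.0% of all genes, with 5 members at an unadjusted p under 0.05, beside 6.02% of all genes (Robo1 and Sema3a adjusted p = 0.298 each, Epha7 0.628). With a dye term the same 3 members were called, beside 3.42% of all genes (adjusted p = 0.0204 for Robo1, 0.0263 for Sema3a and 0.0344 for Epha7), and 13 members had an unadjusted p under 0.05, beside 20.1%. That fit leaves 1 residual degree of freedom in place of 2. With Wnt4 null replicate 1 turned, the dye-term fit called 0 members in XY, although the XY arrays were unchanged. At a 2-fold limit Robo1 was the sole member left in XY, beside 1.01% of all genes, and 0 were left in Wnt4 null gonads, beside 0.236%. With XY replicate 1 left as deposited these 3 genes had arrays of opposite sign, 0 members were called, and the 2 members past 1.5-fold were Epha3 (0.72 and 0.72) and Sema3b (1.53 and 0.59), both higher, beside 1.8% of all genes. The median of all 45 members in XY was 0.02, beside 0.00324 for all genes.

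**Figure D1:**
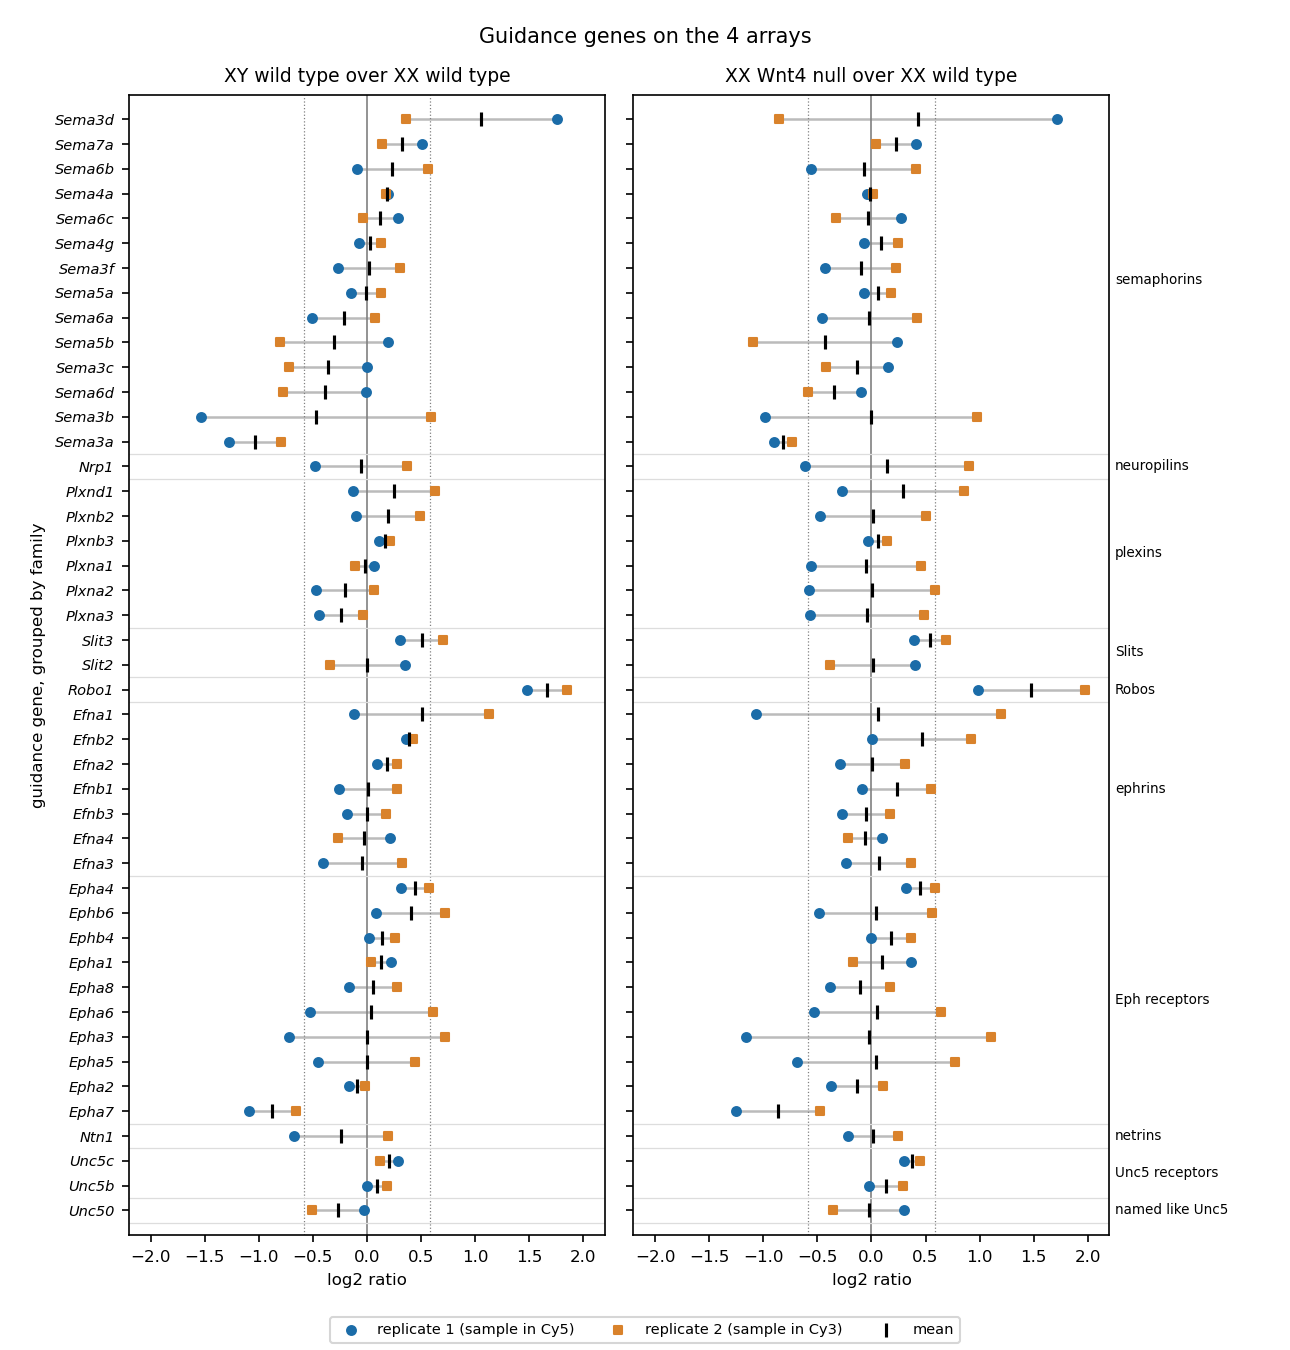
Log2 ratios over XX wild type of the 45 guidance genes on the 4 arrays, with XY wild type on the left and XX Wnt4 null on the right. Circles are replicate 1, squares replicate 2 and ticks their mean, genes are grouped by family, and dotted lines mark 1.5-fold. Robo1 lies to the right of the 1.5-fold line and Sema3a to the left on every array, while the circles and squares of Epha3 and Sema3b fall on opposite sides of 0 in both panels.

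In Wnt4 null gonads the values of these 3 genes pointed the same way, and no member passed the test. Robo1 had 0.98 on replicate 1 and 1.97 on replicate 2, a mean of 1.48 ± 0.70 or 2.79-fold, and ranked number 5 from the top of all genes. Sema3a had -0.90 and -0.74, a mean of -0.82 ± 0.12 or 1.77-fold lower. Epha7 had -1.25 and -0.47, a mean of -0.86 ± 0.55, so that replicate 2 fell short of 1.5-fold. The arrays of Sema3a lay close together, and those of Robo1 differed by 0.99.

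Robo1 and Sema3a were thus the members past 1.5-fold with 1 sign on both Wnt4 null arrays, 1 higher and 1 lower of 45, beside 1.1% of all genes (0.584% higher and 0.512% lower). Limma called 0 members without the dye term (0.0% of all genes) and 0 with it (0.205%, of which 0.143% were above XX and 0.0615% below). Without adjustment, p was under 0.05 for 5 members without the term, beside 3.01% of all genes, and 10 with it, beside 12.6%. The adjusted p with the dye term was 0.0655 for Robo1, 0.0929 for Sema3a and 0.0894 for Epha7. With Wnt4 null replicate 1 turned, 6 members passed 1.5-fold, beside 5.69% of all genes: Efna1, Epha3, Epha5, Nrp1 and Sema3b were higher and Sema3d lower, Robo1, Sema3a and Epha7 had arrays of opposite sign, and 0 members were called. Both comparisons used XX wild type RNA as the reference, and the 2 sets of ratios are therefore not independent if it was the same RNA.

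Subtracting the Wnt4 null ratio from the XY ratio cancels the XX wild type reference if both pairs used the same RNA, which is not stated. Limma called no member in that difference in either fit, nor any of the 9757 genes (0.0%). At an unadjusted p under 0.05 there were 0 members without the dye term, beside 1.64% of all genes, and 1, Sema3b, with it, beside 9.43% (difference -0.47, adjusted p = 0.434). For Robo1 the difference was 0.19 with a 95% interval of -0.93 to 1.30, or -0.34 to 0.71 with the dye term. For Sema3a it was -0.21 with an interval of -0.91 to 0.48, or -0.60 to 0.18 with the dye term. For Epha7 it was -0.01, with an interval of -0.99 to 0.97 or -0.41 to 0.39. These intervals include differences of either sign, so the arrays do not show that XY and Wnt4 null gonads were alike in these genes.

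Among the ligands, 24 of 32 were measured on all arrays. Of 14 semaphorins, 3 were above 0 and 3 below 0 on both XY arrays, and 1 and 2 on both Wnt4 null arrays, with medians of 0.01 and -0.02. Sema3d, another secreted class 3 member, had the second highest mean of all members in XY at 1.06 ± 0.99. Its replicate 1 value of 1.75 and replicate 2 value of 0.36 were far apart, and in Wnt4 null gonads it had 1.71 and -0.85, so the arrays there disagreed on its sign. Sema3c, which binds both neuropilins, had -0.0011 and -0.72 in XY and 0.16 and -0.42 in Wnt4 null gonads. The genes Sema3a, Sema3c, Sema3d and Sema3e all lie on chromosome 5 in RefSeq, and their ratios did not share a direction. Sema7a, a lipid-anchored semaphorin, was above 0 on every array (0.51 and 0.14 in XY, 0.41 and 0.04 in Wnt4 null gonads) and was not called.

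Of the 2 measured Slits, Slit3 had ratios above 0 throughout and Slit2 split by array. Slit3 had 0.31 and 0.70 in XY, a mean of 0.51 ± 0.28, and 0.39 and 0.69 in Wnt4 null gonads, a mean of 0.54 ± 0.21. All 4 values lay above 0, but Slit3 did not pass limma (adjusted p with the dye term 0.0749 in XY and 0.144 in Wnt4 null gonads). Slit2 had 0.35 and -0.34 in XY and 0.41 and -0.39 in Wnt4 null gonads, positive whenever the sample carried Cy5. Slit1 had 1 value, 0.15 on Wnt4 null replicate 2. Robo1 was the sole Robo gene that the rule found on the platform.

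Of the 7 measured ephrins 0 passed 1.5-fold with 1 sign on both arrays of a comparison. Efnb2, the transmembrane ephrin known as a mark of arterial endothelium, had 0.36 and 0.42 in XY, a mean of 0.39 ± 0.05. In Wnt4 null gonads it had 0.00847 and 0.92, a mean of 0.47 ± 0.65 that rests on replicate 2. Ephb4, its receptor and a mark of venous endothelium, had 0.02 and 0.26 in XY and -0.00018 and 0.37 in Wnt4 null gonads. Efna1, a lipid-anchored ephrin, had -0.12 and 1.13 in XY and -1.07 and 1.19 in Wnt4 null gonads. Limma called none of Efnb2, Ephb4 and Efna1 in either comparison or fit. Ntn1, the founding netrin of mammals, had -0.67 and 0.19 in XY and -0.22 and 0.25 in Wnt4 null gonads, opposite in sign on each pair.

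Among the receptors, 20 of 22 were measured on all arrays. Of 10 Eph receptors 4 were above 0 and 2 below 0 on both XY arrays, and 1 and 1 on both Wnt4 null arrays. Epha4, which binds ephrins of both types, averaged 0.45 ± 0.19 in XY and 0.45 ± 0.19 in Wnt4 null gonads and was not called (adjusted p with the dye term 0.0903 and 0.182). Its 2 probes disagreed: probe 1 had -0.91 and 0.90 in XY and -0.37 and 0.96 in Wnt4 null gonads, and probe 2 had 1.54 and 0.26, and 1.01 and 0.21. Fitted on its own with the dye term, probe 2 was called in XY (log2 0.90, adjusted p = 0.0469). Epha3, Epha5 and Epha6 had means between -0.02 (Epha3) and 0.05 (Epha6) in both comparisons, from arrays that mirrored each other. Epha3 had -0.72 and 0.72 in XY and -1.16 and 1.11 in Wnt4 null gonads.

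None of the 6 plexins nor Nrp1 passed limma, or 1.5-fold with 1 sign on both arrays of a comparison. Nrp1, the receptor of Sema3a and a co-receptor of the vascular growth factor VEGF, had -0.48 and 0.37 in XY and -0.62 and 0.90 in Wnt4 null gonads. Plxnd1, a plexin of endothelial cells, had -0.13 and 0.63 in XY and -0.27 and 0.86 in Wnt4 null gonads. The Sema3a ratios, below 0 throughout, stood beside ratios of both signs for Nrp1 and the plexins. The probes of Plxna1 disagreed as well, with -0.26 and -0.34 on probe 1 and 0.39 and 0.12 on probe 2 in XY. Plxna3, Plxnb3 and the ephrin gene Efnb1 are X-linked and averaged -0.24 ± 0.29, 0.16 ± 0.07 and 0.01 ± 0.38 in XY. The netrin receptor gene Unc5c had 0.29 and 0.12 in XY and 0.30 and 0.45 in Wnt4 null gonads, above 0 throughout, and Unc5b, a netrin receptor of endothelial cells, had -0.0042 and 0.19, and -0.02 and 0.29.

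**Figure D2:**
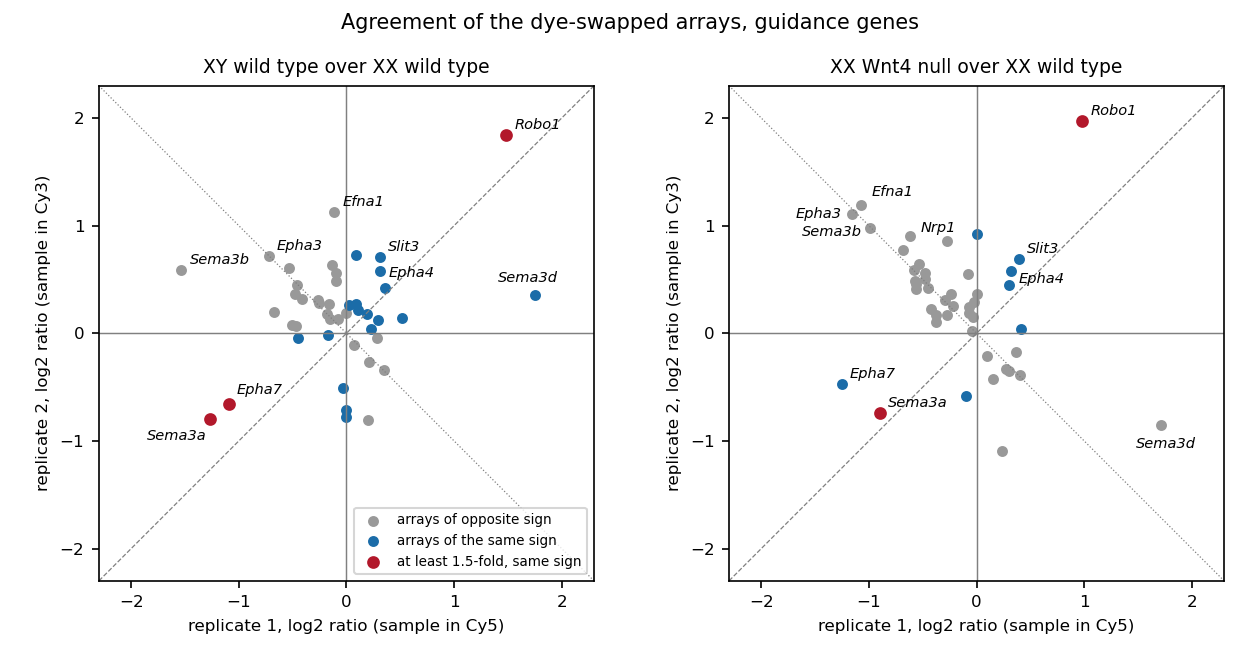
Replicate 2 plotted against replicate 1 for the 45 guidance genes, both axes in log2 ratio over XX wild type, with XY on the left and Wnt4 null on the right. The dashed diagonal marks equal values on both arrays and the dotted one values that mirror each other; red points are past 1.5-fold with 1 sign on both arrays. Robo1 and Sema3a lie in the agreeing quadrants of both panels, and 36 of 45 genes lie in the disagreeing quadrants on the right.

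Dye-swapped arrays often disagreed on the sign of a member. In XY 13 of 45 members were above 0 on both arrays (22.3% of all genes) and 7 below (21.9%), and in Wnt4 null gonads 6 were above (16.0%) and 3 below (15.8%). In XY 25 of 45 members had arrays of opposite sign, beside 55.8% of all genes, and in Wnt4 null gonads 36 of 45, beside 68.3%. Past 1.5-fold with opposite signs were 2 members in XY (1.8% of all genes) and 6 in Wnt4 null gonads (5.69%). The 2 arrays of a gene differed by a median of 0.48 among members in XY and 0.63 in Wnt4 null gonads, against 0.30 and 0.39 over all genes. In the fit with a dye term, the dye coefficient (the log2 shift toward Cy5 that both pairs share) was called for 22 of 45 members, or 48.9%, beside 23.2% of all genes. Over all 45 members it was called below 0 for 16, beside 13.8% of all genes, and called above 0 for 6, beside 9.41%. Among the 2264 genes called in the whole series, 1346 were below 0 and 918 above. Called or not, the coefficient was below 0 for 34 of the 45 members, beside 50.9% of all genes. Its size had a median of 0.30 over the members and 0.17 over all genes. The strongest were Sema3b (-1.02), Sema3d (0.99), Epha3 (-0.93) and Efna1 (-0.88), against -0.34 for Robo1, -0.16 for Sema3a and -0.30 for Epha7. The labels number no replicates, and replicates 1 and 2 are names for the 2 dye orientations. Dye therefore cannot be told apart from other differences between the arrays of a pair.

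**Figure D3:**
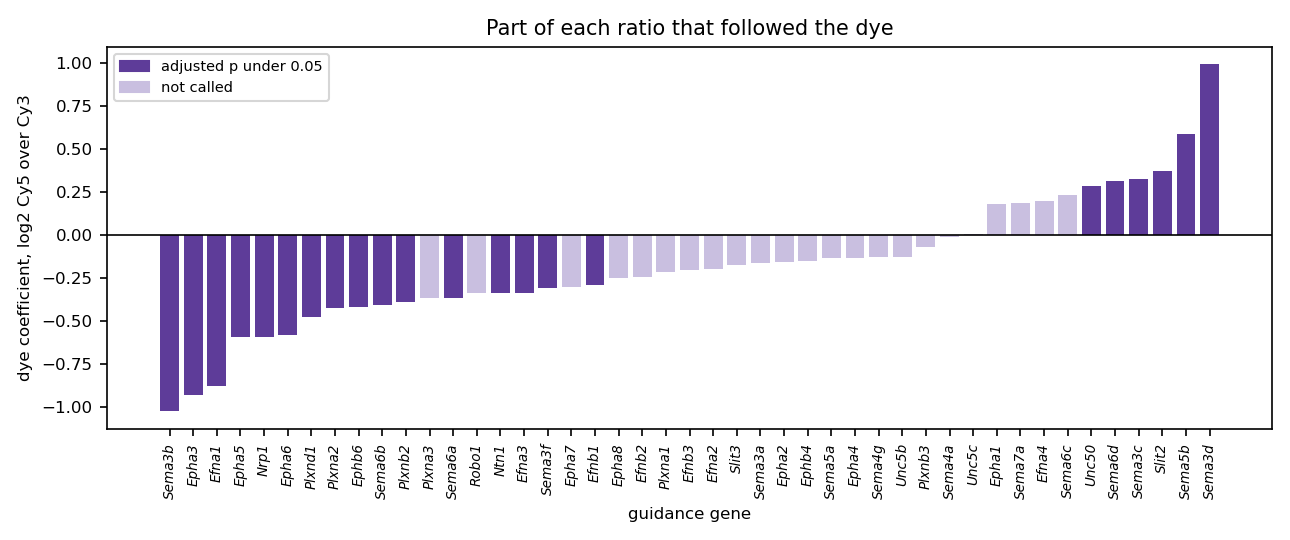
Dye coefficient of each guidance gene in log2 of Cy5 over Cy3, in rising order, from the limma fit with a dye term; dark bars had an adjusted p under 0.05. The bars run from -1.02 for Sema3b to 0.99 for Sema3d, and 22 of 45 are dark.

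The cells read these signals through cytoskeletal and co-receptor partners, of which 53 of 90 listed genes had values on all arrays. With the dye term 4 partners were called higher and 0 lower in XY, beside 1.79% and 1.63% of all genes, and 0 in either direction in Wnt4 null gonads. The median was 0.01 in XY and 0.04 in Wnt4 null gonads. Without the dye term 0 were called in either comparison, beside 0.0% of all genes. At an unadjusted p under 0.05 there were 5 of 53 in XY, beside 6.02% of all genes, and 2 in Wnt4 null gonads, a share near the 3.01% of all genes. Rnd3, which loosens the actin skeleton, had 1.45 and 0.79 in XY and 1.46 and 0.84 in Wnt4 null gonads. Its mean of 1.12 ± 0.46 was called in XY (adjusted p = 0.0199) and its mean of 1.15 ± 0.44 was not in Wnt4 null gonads (0.0511).

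The other called partners had values from -0.37 to 0.11 in Wnt4 null gonads. Rnd2, a close relative of Rnd3 that binds plexins, had 0.98 and 1.35 in XY (mean 1.17 ± 0.26, adjusted p = 0.0193 with the dye term) and -0.37 and -0.07 in Wnt4 null gonads. Ngef, the exchange factor that Epha4 activates, had 0.86 and 1.22 in XY (mean 1.04 ± 0.25, adjusted p = 0.0299) and 0.10 and 0.04 in Wnt4 null gonads. Sdc4, a heparan sulphate proteoglycan, had 0.92 and 0.66 in XY (mean 0.79 ± 0.18, adjusted p = 0.0474) and -0.04 and 0.11 in Wnt4 null gonads. The differences between the comparisons were 1.39 for Rnd2, 0.98 for Ngef and 0.75 for Sdc4, and limma called none of them (adjusted p = 0.172, 0.304 and 0.386 in the fit with the dye term). Dpysl3, a cytoplasmic mediator of semaphorin signals, had 0.11 and 0.05 in XY and 0.65 and 0.87 in Wnt4 null gonads, and was not called. Of 9 Slit and Robo effectors, 0 were called and 0 had an unadjusted p under 0.05 in either comparison or fit. Over all genes the unadjusted shares were 6.02% in XY and 3.01% in Wnt4 null gonads without the dye term, and 20.1% and 12.6% with it, so that a count of 0 among 9 genes says little.

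**Figure D4:**
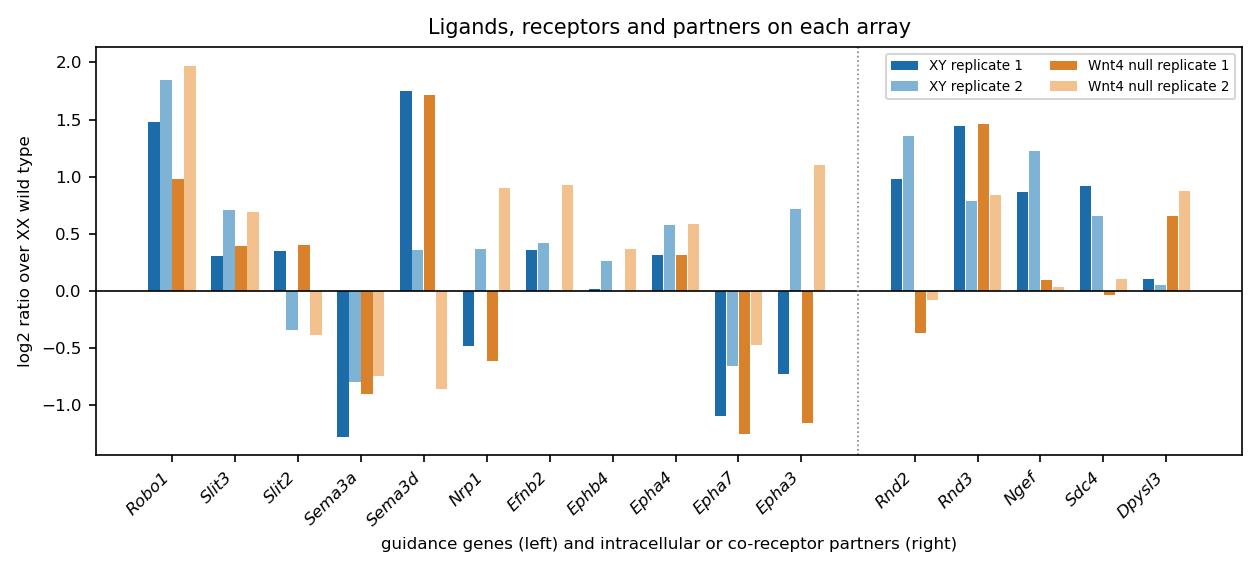
Log2 ratios over XX wild type on each of the 4 arrays, as bars from 0, for ligands and receptors (left of the dotted line) and for partners (right of it). Blue bars are the XY arrays and orange bars the Wnt4 null arrays, and there are no error bars because every array is drawn. Robo1, Slit3, Efnb2, Epha4, Rnd3 and Dpysl3 are above 0 on all 4 arrays, and Sema3a and Epha7 are below 0 on all 4. Rnd2, Ngef and Sdc4 are high on the blue bars alone.

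Guidance genes are used by several cell types of the gonad, and in RNA from whole gonads more cells of a type cannot be told apart from more RNA per cell. Ratios give no level, so whether a cell type was present could not be read from its markers. On the XY arrays 12 of 13 stroma markers were above 0 on both arrays (array medians 0.56 and 0.53), as were 12 of 17 endothelial markers (0.23 and 0.30) and 7 of 9 Sertoli markers, while 8 of 9 ovary supporting cell markers and 8 of 9 germ cell markers were below 0. Cst9 and Fst, from which XY replicate 1 was turned, are among these markers, so their agreement on the XY pair was set by that choice. The XY counts of the other markers depend on the same turn. On the Wnt4 null arrays 10 of 13 stroma markers (0.49 and 0.60), 7 of 17 endothelial markers (0.12 and 0.32) and 5 of 9 macrophage markers were above 0 on both, and 7 of 9 ovary supporting markers and 5 of 9 germ cell markers were below. No macrophage marker was above 0 on both XY arrays and 4 of 9 were below, and the median of the 9 means in XY was -0.03. Of all genes 22.3% were above 0 and 21.9% below 0 on both XY arrays. On both Wnt4 null arrays the shares were 16.0% and 15.8%. Nerve and glia markers, of cells that use the same signals, split by array, with medians of -0.22 and 0.13 in XY and -0.13 and 0.29 in Wnt4 null gonads and 8 and 9 of 10 genes of opposite sign. Of 9 mesonephric duct markers 5 were below 0 on both XY arrays and 3 on both Wnt4 null arrays. The part of these cell types in the values of Robo1, Slit3, Sema3a and Epha7 was not tested.

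Members measured on some arrays added values of both signs. Ntn3, a netrin, had -1.52 on XY replicate 2, and 0.23 and -1.06 on the Wnt4 null arrays. Plxnc1, the receptor of Sema7a, had -0.64 and 1.32 on the Wnt4 null arrays, and Sema3e, which binds Plxnd1 directly, had -0.85 and 0.39 there and -0.23 on XY replicate 2. Sema4d had 0.04 and 0.77 on the Wnt4 null arrays, and Sema4b 0.09 and -0.15. A second Sema3c probe had a value on Wnt4 null replicate 2 alone, 0.72, opposite to the -0.42 of the other probe. Ntn4 and Unc5cl had at most 1 value in each comparison.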

How the data were processed

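The authors deposited 1 log2 ratio of the 2 dyes per spot and array, with blanks. Log base 2 was read from XY replicate 1, whose lowest value of -6.64 is the log2 of 0.01, and was assumed for the other arrays. Deposited medians ran from -0.0388 to 0.0084, so arrays had been centred near 0. The normalization, image analysis and numerator are not given in the sources used here. Arrays held 12866, 13967, 14131 and 14533 values of 17664 spots, and their number limits the precision.

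Of the spots 14010 had 1 symbol, 13 several and 3641 none, and 13908 matched RefSeq GRCm38.p6 by Entrez identifier, used for names and chromosomes. All 56 members matched. Probes of a gene with values on all 4 arrays were averaged. One limma fit (limma 3.58.1, R 4.3.3, lmFit and eBayes) over 9757 genes estimated both comparisons without a dye term, with Benjamini-Hochberg adjustment over all genes and calls under 0.05. A fit with a dye term shared by the 4 arrays stands beside it. Other settings were deposited centring, centring in printed blocks of 552 spots, a common spread, other directions, blanks per comparison, single probes, a 2-fold limit and each array left out. Both fits were also run on simulated data whose spread was drawn from the XY arrays alone, and no outcome is used here. Named members were those past 1.5-fold or called, the 6 highest and lowest per comparison, the 2 whose arrays differed most and those with several probes, and others were named to describe their family. Members and lists were chosen with earlier results of these data known. Upstream windows came from a RefSeq table of GRCm38.p6.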

Additional observations from a re-analysis of the deposited data

How the results depend on the processing

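Each ratio already pairs a sample with XX wild type RNA on the same array. The labels number no replicates, so no further pairing across the comparisons was fitted. The dye term took the place of a block on array orientation. Adding the dye term moved the members called in XY from 0 to 3 (Robo1 1.66, Sema3a -1.03 and Epha7 -0.88). In further settings chosen after seeing the data, the dye-term fit called 3 members with deposited centring and 6 with print blocks centred. It called 8 after scaling the arrays to equal spread and 4 probes fitted singly. It called 0 with XY replicate 1 as deposited, with Wnt4 null replicate 1 turned, and with both. In Wnt4 null gonads the dye term called 0, then 1 with deposited centring (Robo1, adjusted p = 0.0442), 3 with print blocks centred and 3 with arrays scaled (Robo1, Sema3a and Epha7 in both). There it called 0 with either array or both turned the other way, and 0 with probes fitted singly. The shares of all genes called in these further settings were not counted. The counts therefore do not show a change particular to the members. All other planned settings without the dye term called 0 members in each comparison and in their difference. At 2-fold, 1 member remained in XY (Robo1) and 0 in Wnt4 null gonads. The count past 1.5-fold ranged from 3 to 13 in XY and from 2 to 15 in Wnt4 null gonads when arrays were left out one by one. The high ends come from the pair cut to 1 array, where a single value suffices: 13 without XY replicate 1 and 7 without XY replicate 2, 15 without Wnt4 null replicate 1 and 9 without Wnt4 null replicate 2. With XY replicate 1 as deposited, alone or with Wnt4 null replicate 1 turned, Sema3a averaged 0.24 and Epha7 0.22 in XY, opposite to their reported signs. With Wnt4 null replicate 1 turned, alone or with the former, Sema3a averaged 0.081 and Epha7 0.39 there, both opposite to their reported signs, and 6 members passed 1.5-fold. These changes of the means and of the count past 1.5-fold follow from reversing the sign of 1 array of a pair. The causes of the other shifts were not tested. Of the named members' values not past 1.5-fold, 20 changed sign under at least 1 setting. Where the arrays of a pair had opposite signs, leaving out 1 or the other had to change the sign, and the 20 include these. No dye-term fit was possible with an array left out, since no residual degree of freedom remains. Spot intensities were not analysed here, so dim spots could not be set apart.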
